A study of Homo sapiens with 12 samples.

Results

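The 10 genes described here are commonly read as transcriptional output of the RAF to ERK kinase cascade: the phosphatase genes DUSP4, DUSP5 and DUSP6, the Sprouty genes SPRY2 and SPRY4, the SPRED genes SPRED1 and SPRED2, the ETS factor genes ETV4 and ETV5, and PHLDA1. They were found by their gene symbol in the platform annotation, which assigned them 17 of the 48803 probes on the array. Of those probes, 10 stood above background on at least 3 of the 12 arrays. These 10 probes represent 9 of the genes, because the probe of SPRY2 was too dim to be tested and ETV5 had a pair of probes that passed.

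The cells were HDLM-2, an established line grown from a Hodgkin lymphoma. The treated groups received perifosine at 10 µM, sorafenib at 5 µM, and the combination of both agents at those doses, each for 24 h, and the control group was labelled as such with no word on a vehicle. Each group had 3 arrays, named A, B and C in the labels, and expression was read on Illumina bead arrays from total RNA. Only 1 line was studied, and nothing in the labels says that the 3 samples of a group were separate cultures, so a p-value here is set against a spread that may be technical only. RNA was taken from whole cultures, in which fewer cells of a kind and less RNA per cell cannot be told apart, and neither ERK phosphorylation nor protein was among the values used here.

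RAF kinases phosphorylate MEK, MEK phosphorylates ERK, and active ERK switches on transcription within minutes through ETS and AP-1 factors. Part of what it switches on is its own brake. The dual-specificity phosphatases DUSP4, DUSP5 and DUSP6 remove the activating phosphates from MAP kinases, DUSP5 and DUSP6 with a strong preference for ERK, the first in the nucleus and the second in the cytoplasm. Sprouty and SPRED proteins act upstream, between growth factor receptors, RAS and RAF. ETV4 and ETV5 are ETS factors of the PEA3 group that carry the ERK signal to further genes. Perifosine is an alkylphospholipid that blocks AKT signalling, and sorafenib inhibits RAF kinases and several receptor tyrosine kinases, so these genes are a place to ask how RAF to ERK output stood after a day under each agent.

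DUSP5 and ETV5 were lower on the arrays that had received sorafenib, with or without perifosine, and were the only members that passed the test there. For ETV5 this holds for the brighter of its 2 probes alone, since the other changed by a log2 value of -0.04 (limma adjusted p = 0.865). Setting the 6 arrays with sorafenib (sorafenib and combination) against the 6 without (perifosine and control), DUSP5 stood at 0.746 and ETV5 at 0.671 of the level without sorafenib, on the background-corrected scale. Called here means an adjusted p under 0.05 in limma with Benjamini-Hochberg adjustment over all 13556 genes tested. In this comparison 2 of the 9 tested members were called, both lower, and 3.78% of all genes were called in either direction and 1.2% lower. The same 2 members were the ones with all 6 arrays with sorafenib below all 6 without, which held for 1.39% of all genes. The median log2 change of the 9 members was -0.18, against 0 for all genes. Of the 9, 7 had a negative change, against 51% of all genes. No member was called higher in any comparison made.

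The deposited values had been brought to a common distribution, with a median signal of 216.4 to 216.6 on each array and a background threshold of 224.9 to 225.4, so they carry no measure of how the arrays differed in brightness. Of 8 Hodgkin cell markers, 7 were above background on every array, among them TNFRSF8 (CD30) at 384 to 601.3, and IL13 on none. B cell markers were weak, with the brightest MS4A1 probe above background on all arrays, its other probes on none, and PAX5 on none. Of the T cell markers, CD2 was bright on every array, at 11926 to 14902, and CD5 was above background on none. The summed signal of the 8 Hodgkin markers was 52116 to 56305 with perifosine, 67925 to 70327 with sorafenib, 70081 to 70760 with the combination and 56902 to 63554 in control. Most of that sum came from CCL17, at 20520 to 40017, and BATF3, at 21480 to 28954. Of those markers CCL17 and TRAF1 were called higher on the arrays with sorafenib (log2 changes 0.54 and 0.53, limma adjusted p = 0.0046 and 0.00718). That comparison called 3.78% of all genes in either direction. The median log2 change of the 7 tested there was 0.05, with 6 above 0 and 1 below. TNFRSF8 was lower than in control, by -0.31 with sorafenib and -0.29 with the combination, and was not called. The part of these marker changes in the results on the ERK genes was not tested. Of the other cell type lists 3 B cell, 4 T cell, 5 myeloid and 2 fibroblast or endothelial markers were tested, and 0 were called in any comparison by limma. The summed signal of the T cell list was 13992 to 15304 with perifosine, 15015 to 15377 with sorafenib, 14787 to 15746 with the combination and 12748 to 14590 in control. The sorafenib and combination arrays thus lay above the controls. That sum was nearly all CD2, since the other T cell markers read at most 254.2. Between arrays with and without sorafenib the 4 tested had a median log2 change of 0, with 2 below 0 and 2 above. The part of this sum in the results was not tested either.

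DUSP5, the nuclear ERK phosphatase, was far above background on every array. Its deposited signal was 11446, 11300 and 10589 with perifosine, 8162, 7221 and 8024 with sorafenib, 7729, 7811 and 7838 with the combination, and 9808, 10133 and 9336 in control. All 6 arrays with sorafenib lay below all 6 without it, and the 3 perifosine arrays lay above the 3 controls. Across the 6 arrays with and the 6 without sorafenib, the log2 change was -0.42 ± 0.07 (SE; 95% confidence interval -0.57 to -0.28; limma adjusted p = 0.0046). The gene held this call in each of 13 fits that left arrays out, with log2 changes from -0.44 to -0.40 and adjusted p-values up to 0.0159, and in all 9 of the other settings tried.

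**Figure D1:**
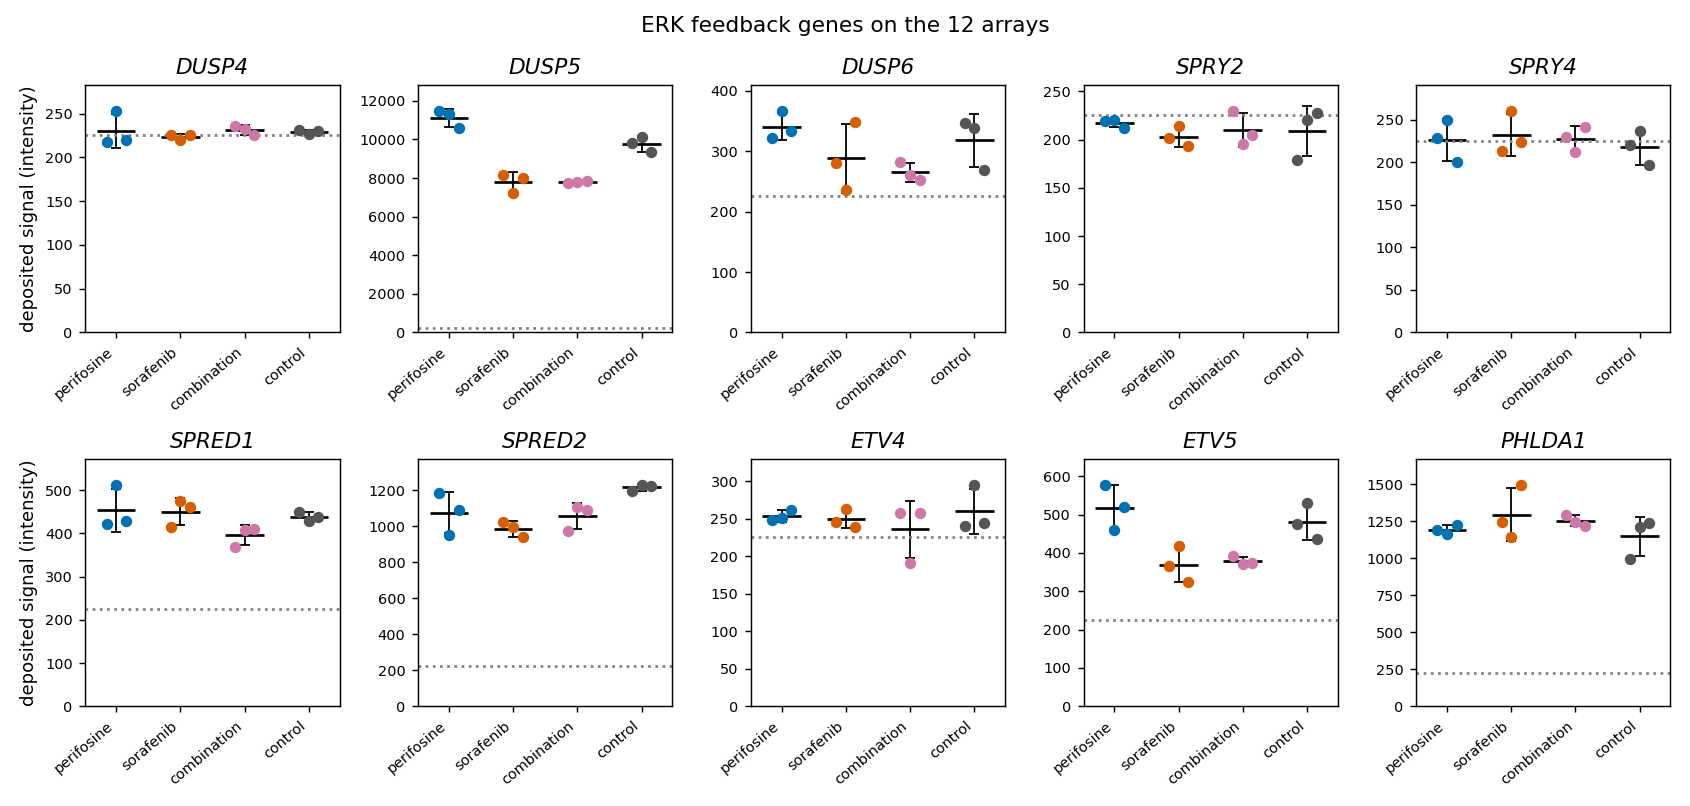
Deposited signal (intensity, linear axis from 0) of the representative probe of each of the 10 genes on the 12 arrays, in the groups perifosine, sorafenib, combination and control. Points are arrays, bars are the mean ± SD of 3 arrays, and the dotted line is the background threshold; DUSP5 and ETV5 show 6 arrays with sorafenib below 6 without it, while DUSP4, SPRY2 and SPRY4 lie at the threshold.

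Pair by pair, DUSP5 passed the test only where the group set against it was perifosine. It was called lower in the combination than in perifosine (log2 change -0.52 ± 0.10, SE; limma adjusted p = 0.0266), the only call among the 9 members in a comparison that called 0.716% of all genes and 0.162% lower. It was also called lower in sorafenib than in perifosine by the same -0.52 (limma adjusted p = 0.0329), again as the only member, with 0.443% of all genes called and 0.111% lower. The first of these calls was lost without perifosine A, B or C (limma adjusted p = 0.111, 0.0732 and 0.0583) and without combination A, B or C (0.0975, 0.0854 and 0.122). Of the fits without 1 array, the second held only in that without control C, and the others gave limma adjusted p-values of 0.0505 without control B up to 0.157 without sorafenib B. Both were also lost with no filter on dim probes (limma adjusted p = 0.0724 and 0.0819) and with the spread taken from the 2 groups compared alone (0.149 and 0.284).

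Against control, DUSP5 did not reach the threshold under any treatment. Its log2 change from control was -0.33 ± 0.10 with sorafenib (SE; limma unadjusted p = 0.0045, adjusted p = 0.13) and -0.33 with the combination (adjusted p = 0.177), although in both cases the 3 treated arrays lay below the 3 controls. With perifosine the log2 change from control was 0.19 ± 0.10 (limma adjusted p = 0.991). Between the combination and sorafenib alone the log2 change was 0.00, with a 95% confidence interval of -0.21 to 0.21. The test of the difference between the sorafenib change with and without perifosine gave -0.19 ± 0.14 (SE; limma adjusted p = 0.73). Over all 4 groups, DUSP5 was the only member called by the F test of limma (adjusted p = 0.0292), a test that called 0.959% of all genes, and that call was lost in all 13 fits that left arrays out.

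DUSP6, the cytoplasmic ERK phosphatase and a usual marker of MEK and ERK activity, was measured near background. Its brighter probe read 322.5, 365.6 and 332.6 with perifosine, 280.9, 235.4 and 347.6 with sorafenib, 282.3, 260 and 251.8 with the combination, and 347.3, 338.1 and 268 in control. The combination arrays lay below all perifosine arrays, while the sorafenib and control arrays overlapped, sorafenib C reading higher than every control. The log2 change between arrays with and without sorafenib was -0.44 ± 0.16 (SE; 95% confidence interval -0.77 to -0.10; limma unadjusted p = 0.0148, adjusted p = 0.15), as large as that of DUSP5 but with an SE more than 2 times wider. Without sorafenib C it was -0.56 with a limma adjusted p of 0.0426, and with arrays weighted by their spread -0.50 with 0.0475. Both settings cross the threshold, and the others did not. The second probe of DUSP6, for another transcript, was above background on 0 of 12 arrays, at 172.9 to 224.2, so it gives no check on the first.

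The RefSeq promoter window of DUSP6, from 250 bases before to 50 after the transcript start (GRCh38.p14, chr12:89352452-89352751, minus strand), is shown because DUSP6 is the member most often used to read ERK output. It was searched on both strands for 4 short motifs: the ETS motif CCGGAAG, the AP-1 motif TGACTCA, the CRE TGACGTCA and a serum response element, whose letters are the capitals in the EGR1 window shown further on. The windows shown here hold no overlapping matches. None of these strings is in it, so it stands in lower case throughout.
DUSP6: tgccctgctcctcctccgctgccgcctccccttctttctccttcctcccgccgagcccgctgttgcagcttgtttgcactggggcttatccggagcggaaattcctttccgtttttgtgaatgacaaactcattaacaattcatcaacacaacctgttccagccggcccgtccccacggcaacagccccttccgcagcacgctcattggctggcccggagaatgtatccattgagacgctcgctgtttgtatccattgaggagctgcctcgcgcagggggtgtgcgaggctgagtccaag
These windows exist here for 6 of the 10 genes, 9 windows in all, and 1 of the 9 held a match.

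DUSP4, which acts on ERK and on the stress-activated MAP kinases in the nucleus, sat at the background threshold. Its probe was above it on 1 perifosine array, 1 sorafenib array, 3 combination arrays and 3 control arrays, and its signal ranged only from 217.4 to 252.4. The log2 change between arrays with and without sorafenib was -0.02, with a 95% confidence interval of -0.21 to 0.16. With most perifosine and sorafenib arrays below the threshold, this interval sets no limit on a change of DUSP4. A second DUSP4 probe was above background on 0 arrays.

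The Sprouty genes, whose products restrain receptor signalling upstream of RAF, were barely expressed above background. SPRY2 read 179.1 to 229.1 and was above background on 2 of 12 arrays, 1 of the combination and 1 control, so it was not tested. With no filter on dim probes its log2 change between arrays with and without sorafenib was -0.10 ± 0.15 (SE; limma adjusted p = 0.837 over 18852 genes). SPRY4 had 4 probes, of which 1 passed, above background on 6 of 12 arrays at 196.3 to 259.6. Its log2 change with sorafenib was 0.12 (95% confidence interval -0.20 to 0.44; limma adjusted p = 0.741), and its groups overlapped throughout.

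The SPRED genes, relatives of Sprouty that bind the RAS inhibitor neurofibromin and hold back RAF activation, were clearly above background and were called in no comparison. SPRED2 read 1181, 952.5 and 1090 with perifosine, 1022, 994.7 and 937.4 with sorafenib, 970.3, 1107 and 1090 with the combination, and 1194, 1227 and 1224 in control. Every treated array lay below every control. Its log2 changes from control were -0.21 with perifosine, -0.34 ± 0.11 with sorafenib (SE; limma unadjusted p = 0.00949, adjusted p = 0.172) and -0.23 with the combination. The sign of the test for a difference between the sorafenib change with and without perifosine was positive, 0.32 ± 0.16 (SE; limma adjusted p = 0.651), since SPRED2 differed by -0.02 between the combination and perifosine alone.

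SPRED1 read 420.6, 511.3 and 428.1 with perifosine, 415, 475.4 and 460.6 with sorafenib, 368.4, 407.9 and 409.6 with the combination, and 448.7, 428.6 and 438.5 in control. The 3 combination arrays were the lowest of the 12, below every array of the other groups. Its log2 change was -0.27 ± 0.13 between the combination and perifosine (SE; limma unadjusted p = 0.0518, adjusted p = 0.382), -0.26 between the combination and sorafenib (adjusted p = 0.817) and 0.05 between sorafenib and control. The test for a difference between the sorafenib change with and without perifosine gave -0.32 ± 0.18, opposite in sign to that of SPRED2 (limma adjusted p = 0.67).

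One SPRED2 promoter window was the only window of the 10 genes with a match, and is shown for that reason. It belongs to 1 of the 2 SPRED2 starts listed (GRCh38.p14, chr2:65366729-65367028, minus strand). The capitals mark an AP-1 motif that begins 6 bases before the start and runs into it; AP-1 is the dimer of FOS and JUN proteins.
SPRED2: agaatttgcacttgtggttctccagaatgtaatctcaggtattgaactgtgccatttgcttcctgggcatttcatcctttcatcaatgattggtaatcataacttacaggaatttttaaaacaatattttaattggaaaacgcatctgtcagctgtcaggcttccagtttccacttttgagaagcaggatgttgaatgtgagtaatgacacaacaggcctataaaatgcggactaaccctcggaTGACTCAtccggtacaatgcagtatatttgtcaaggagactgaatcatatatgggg
Of all 35116 RefSeq promoter windows of this length, 4.95% hold TGACTCA, 10.3% hold CCGGAAG and 1.85% hold TGACGTCA. The exact letters searched as the serum response element are in 0.0342%, and other spellings of that site were not searched.

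**Figure D2:**
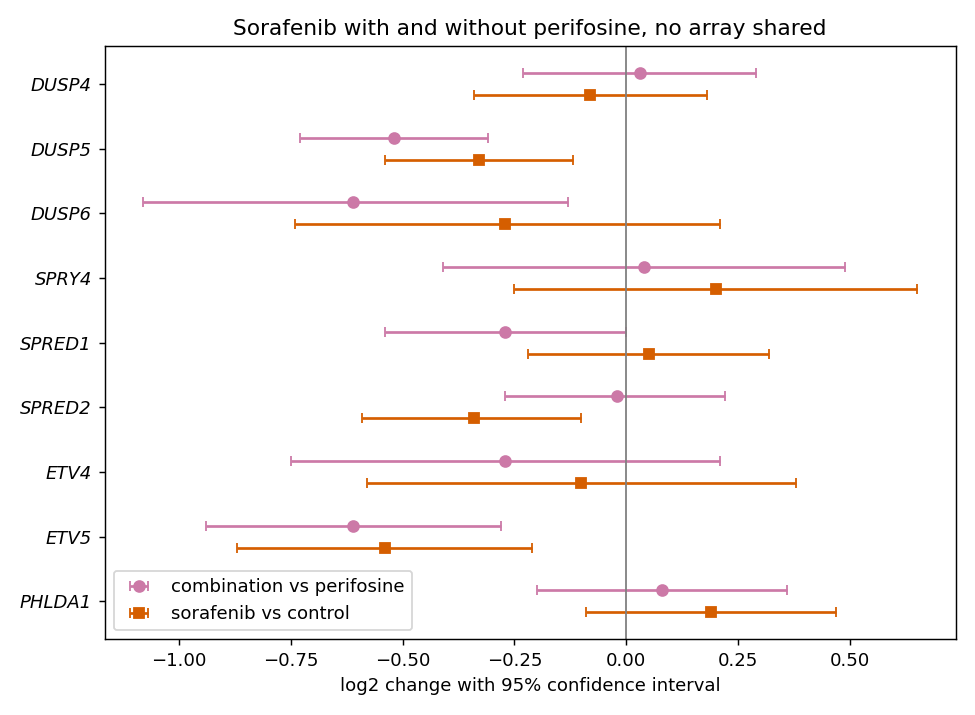
Log2 change (x axis, with 95% confidence intervals) of the 9 tested genes in the combination against perifosine (circles) and in sorafenib against control (squares), which share no array. DUSP5, DUSP6, ETV4 and ETV5 lie left of 0 in both, ETV5 at -0.61 and -0.54, and SPRED2 at -0.02 and -0.34.

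ETV5, an ETS factor of the PEA3 group, was the other member called. Its brighter probe read 576.8, 458.9 and 519 with perifosine, 366.5, 416.9 and 324.9 with sorafenib, 391, 371.5 and 374 with the combination, and 475.3, 530.5 and 435.9 in control. All 6 arrays with sorafenib lay below all 6 without it, the highest of the first at 416.9 and the lowest of the second at 435.9. The log2 change between them was -0.58 ± 0.11 (SE; 95% confidence interval -0.81 to -0.34; limma adjusted p = 0.0113). It held in all 13 fits that left arrays out, with adjusted p-values up to 0.0343. Only 28 of the 13556 genes had a more negative change, and 106 had a more negative one than DUSP5.

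Taken pair by pair ETV5 did not reach the threshold. Its log2 changes were -0.54 ± 0.15 between sorafenib and control (SE; limma adjusted p = 0.123), -0.47 between the combination and control (adjusted p = 0.233), -0.61 ± 0.15 between the combination and perifosine (adjusted p = 0.0998) and -0.68 between sorafenib and perifosine (adjusted p = 0.0913). The treated arrays did not overlap with those of the other group in any of these 4 pairs. With perifosine alone its log2 change from control was 0.14, and between the combination and sorafenib 0.07, neither near the threshold.

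A second ETV5 probe that passed the filter did not show the decrease. It read 280.5, 279.1 and 263 with perifosine, 273.5, 302.4 and 275.3 with sorafenib, 263.4, 272 and 278.1 with the combination, and 270.1, 311.3 and 286.9 in control, and the groups overlapped. Its log2 change between arrays with and without sorafenib was -0.04 ± 0.08 (SE; limma adjusted p = 0.865), although both probes are annotated to the same transcript. It lay nearer the background threshold, and averaging both probes gave -0.31 with a limma adjusted p of 0.0702. The call on ETV5 therefore rests on 1 of its 2 probes.

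**Figure D3:**
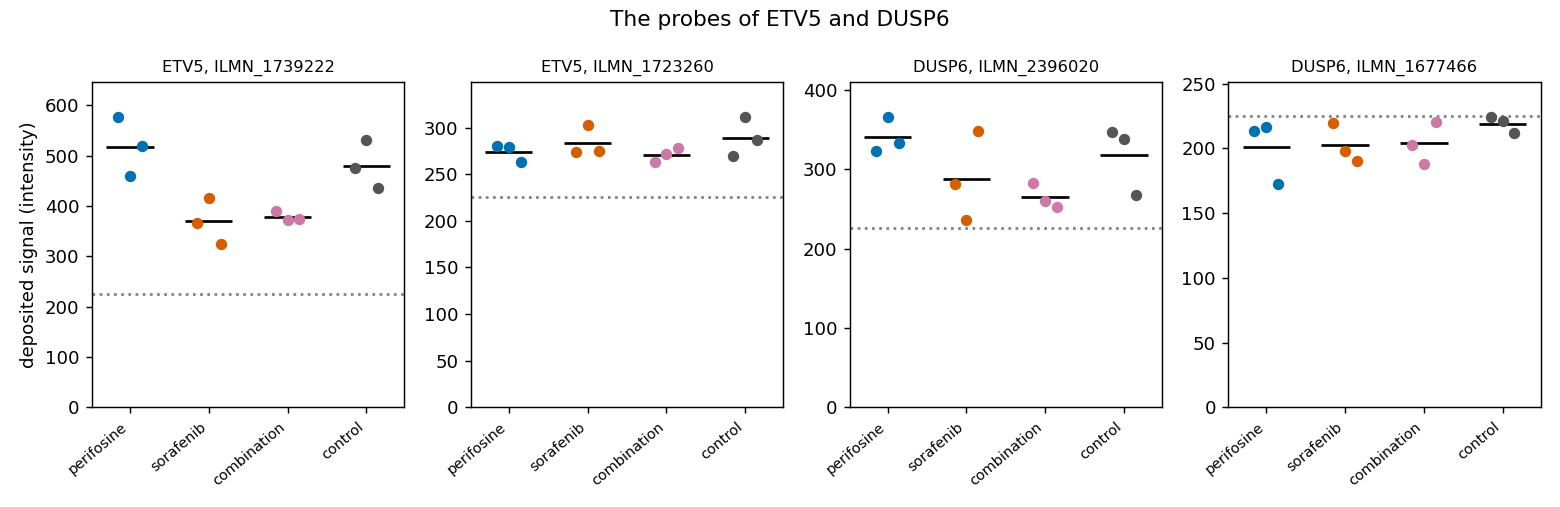
Deposited signal (intensity, linear axis from 0) of both probes of ETV5 and both of DUSP6 on the 12 arrays, with the group mean of 3 arrays as a bar and the background threshold as a dotted line. The ETV5 probe at 324.9 to 576.8 separates arrays with and without sorafenib and the one at 263 to 311.3 does not, and the second DUSP6 probe lies at or below the threshold throughout.

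ETV4, the other PEA3 factor, was close to background, at 191.3 to 294.9 and above it on 11 of 12 arrays. Its lowest array, at 191.3, was combination B. The log2 change between arrays with and without sorafenib was -0.18 (95% confidence interval -0.52 to 0.16; limma adjusted p = 0.595). Without combination B it was -0.03, and over the 13 fits that left arrays out it ranged from -0.27 to -0.03. Whether it differs from the change of ETV5 was not tested. A second ETV4 probe was above background on 2 arrays.

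PHLDA1, a pleckstrin-homology-like protein that is part of MEK and ERK signatures in several tumour types, was called in no comparison. It read 1189, 1160 and 1226 with perifosine, 1242, 1145 and 1492 with sorafenib, 1292, 1245 and 1217 with the combination, and 991.6, 1211 and 1235 in control. The groups overlapped in each comparison with control, and sorafenib C was the highest array and control A the lowest. The log2 change between arrays with and without sorafenib was 0.13 (95% confidence interval -0.06 to 0.33; limma adjusted p = 0.483), an interval that does not reach the change of DUSP5.

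Sorafenib was given on 2 different backgrounds, and the 2 comparisons that measure it share no array. In sorafenib against control 0 of the 9 members were called, where 0.819% of all genes were, and 3 had an unadjusted limma p under 0.05, as did 15% of all genes. In the same comparison 4 of the 9 (DUSP4, DUSP5, SPRED2 and ETV5) had all treated arrays below all controls, against 10.3% of all genes. Of these DUSP4 lay at the background threshold, with 1 of 3 sorafenib arrays above it and a log2 change of -0.08. In the combination against perifosine 4 of the 9 (DUSP5, DUSP6, SPRED1 and ETV5) had all arrays lower, against 8.31% of all genes. The change had the same sign in both for 7 of the 9 members, 77.8%, against 56.8% of all genes, and was negative in both for 55.6%, against 29%. These shares describe the 9 genes and were not tested. In the combination against control 0 members were called, with 0.627% of all genes called, and 2 had an unadjusted limma p under 0.05, against 12.1% of all genes. There 4 of the 9 (DUSP5, SPRED1, SPRED2 and ETV5) had all arrays below all controls, against 9.39% of all genes.

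Perifosine alone moved none of these genes past the threshold. Against control 0 of the 9 members were called and 0% of all genes, 0 members had an unadjusted limma p under 0.05 and 544 genes in all did (4.01%), and the median log2 change of the members was 0.07. DUSP5 was the one member with all perifosine arrays above all controls and SPRED2 the one with all below, against 8.56% of all genes that separated in either direction. Adding perifosine to sorafenib likewise gave 0 calls among the members and 0% of all genes, with 0 members at an unadjusted limma p under 0.05, against 6.05% of all genes. The test of whether the sorafenib change differed with perifosine present called 0 of the 9 members and 0% of all genes, with 0 members at an unadjusted limma p under 0.05, against 7.58% of all genes.

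**Figure D4:**
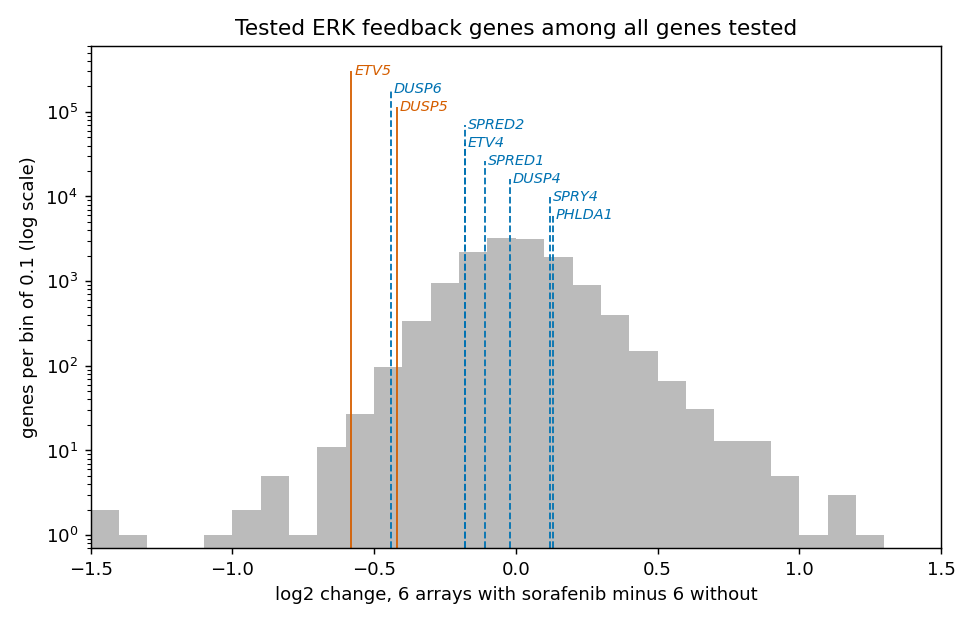
Number of genes per bin of 0.1 (y axis, log scale) by log2 change between the 6 arrays with and the 6 without sorafenib (x axis), for all 13556 genes tested. Vertical lines mark the 9 tested members, solid for the called ETV5 and DUSP5 and dashed for the others; ETV5 at -0.58, DUSP6 at -0.44 and DUSP5 at -0.42 lie in the lower tail.

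Other immediate and delayed ERK targets were read from a list of 22 genes. Of these, 18 were tested, and 4 were called lower and 0 higher on arrays with sorafenib: FOS, EGR1, CXCL8 and FOSL1. Of all genes, 1.2% were called lower in that comparison and 3.78% in either direction. The median log2 change of the 18 was -0.11, against 0 for all genes, and 14 were below 0, against 51% of all genes. FOS, the AP-1 component induced first after ERK activation, had a lowest, median and highest signal of 221.7, 229.1 and 258.4 on the 6 arrays with sorafenib, against 299.9, 336.2 and 362.6 on the 6 without. Its log2 change was -0.90 ± 0.11 (SE; limma adjusted p = 0.000472), and it was called lower against control too, by -0.86 with sorafenib and -0.88 with the combination (limma adjusted p = 0.0216 and 0.0168). The call with sorafenib was lost without control A or C, sorafenib A or C, or perifosine B and sorafenib C together (limma adjusted p up to 0.101), and with no filter on dim probes (0.0534). The call with the combination was lost without control A or C or combination A or B (up to 0.104), and both were lost with only the groups compared in the fit (0.084 and 0.0624). With sorafenib its signal had come down to background, above the threshold on 2 of 3 sorafenib and 2 of 3 combination arrays, so the size of this change depends on how background is treated and was -0.51 without background correction.

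EGR1, an immediate-early zinc finger factor, was likewise lower, at 195.4, 238 and 279 with sorafenib against 289.7, 332.8 and 383.6 without it (lowest, median and highest of 6 arrays each). Its log2 change was -0.87 ± 0.14 (SE; limma adjusted p = 0.00505), or -0.48 without background correction, and only 1 of 3 combination arrays stood above background. CXCL8, the chemokine interleukin-8, changed by -0.54 ± 0.08 (limma adjusted p = 0.0025), with 1 of 3 combination arrays above background and -0.29 without the correction. FOSL1, an AP-1 factor that accumulates under sustained ERK signalling, changed by -0.38 ± 0.09 (limma adjusted p = 0.0434), a call that held in 1 of the 13 fits that left arrays out, that without sorafenib B, with adjusted p-values up to 0.109 without combination C. MYC was not called (0.09, limma adjusted p = 0.686), and CCND1 and EPHA2 were above background on no array.

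The promoter window of EGR1 is shown because EGR1 was called and its window held the rarest of the 4 strings searched (GRCh38.p14, chr5:138465229-138465528, plus strand). The capitals mark a serum response element, the site bound by serum response factor with its ETS partners, which begins 105 bases before the start.
EGR1: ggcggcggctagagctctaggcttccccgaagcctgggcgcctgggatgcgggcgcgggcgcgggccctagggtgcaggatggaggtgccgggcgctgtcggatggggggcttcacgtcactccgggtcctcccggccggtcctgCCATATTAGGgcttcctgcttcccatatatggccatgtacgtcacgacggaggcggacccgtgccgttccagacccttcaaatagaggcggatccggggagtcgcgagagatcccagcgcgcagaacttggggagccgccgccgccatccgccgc
Only 12 of the 35116 windows hold these letters exactly, and a match in letters says nothing on whether the site was bound in these cells.

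**Figure D5:**
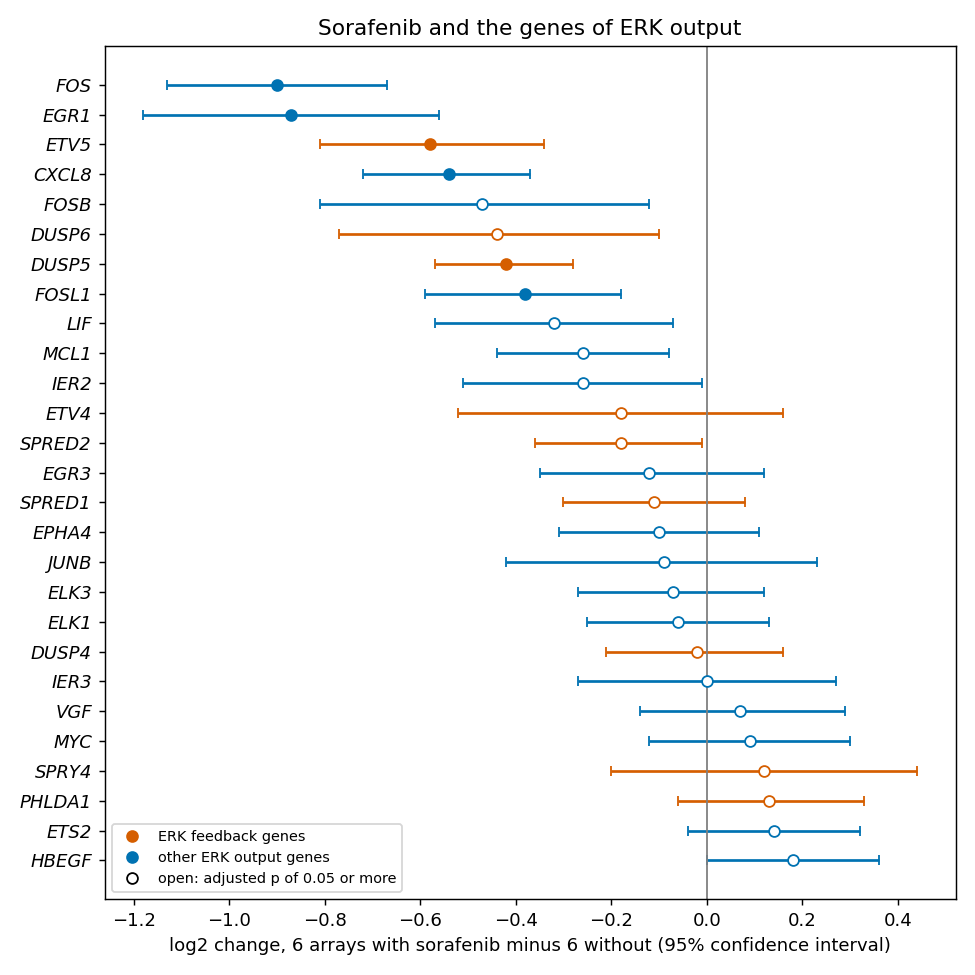
Log2 change between the 6 arrays with and the 6 without sorafenib (x axis, with 95% confidence intervals) of the 9 tested feedback genes and the 18 tested genes of the ERK output list. Filled points were called by limma (adjusted p under 0.05) and open points were not; FOS at -0.90 and EGR1 at -0.87 lie lowest, and none of the called genes lies above 0.

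Among the dual-specificity phosphatases outside the 10 genes 0 were called lower on the arrays with sorafenib, where 1.2% of all genes were. A count of 0 among 9 is near that share, and a difference from the members was not tested. In either direction 3.78% of all genes were called there. Of the 9 tested, 1 was called, and it was higher: DUSP16, which acts on the JNK and p38 kinases, read 775.4, 877.3 and 912.5 with sorafenib against 600.3, 674.7 and 755.1 without it (lowest, median and highest of 6 arrays each). Its log2 change was 0.41 ± 0.09 (SE; limma adjusted p = 0.0247), and the call was lost in 7 of the 13 fits that left arrays out, those without control A or B, perifosine C, sorafenib A or B, and combination B or C, at adjusted p-values of 0.0521 to 0.0657. The median log2 change of those 9 was 0.17, against 0 for all genes, with 6 above 0 and 3 below, from -0.28 to 0.48. The highest was DUSP8 at 0.48 (limma adjusted p = 0.0613), and DUSP3 was at 0.39 (adjusted p = 0.0601). DUSP1, an immediate-early phosphatase of p38, JNK and ERK, was bright and not called (0.13, limma adjusted p = 0.553).

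Among 6 further relatives of the Sprouty, SPRED, PEA3 and PHLDA genes, 2 were tested. PHLDA2, an imprinted relative of PHLDA1, was called lower on the arrays with sorafenib (log2 change -0.36 ± 0.08, SE; limma adjusted p = 0.0202) and in sorafenib against control (-0.56 ± 0.11, SE; adjusted p = 0.027). Those comparisons called 3.78% and 0.819% of all genes in either direction. The call over the 6 and 6 arrays was lost in 6 of the 13 fits that left arrays out, those without control A or B, perifosine A, sorafenib A, and combination A or C, at adjusted p-values of 0.055 to 0.0586. That against control was lost without any 1 array of the sorafenib or control groups (limma adjusted p = 0.0606 to 0.111). SPRY1, SPRY3, ETV1 and PHLDA3 were above background on no array. Of the components of the cascade itself, 12 were tested and 0 were called on the arrays with sorafenib, ARAF at -0.17 (limma adjusted p = 0.504) among them. There 0 of 7 housekeeping genes were called, and 3.78% of all genes.

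Across the 3 changes from control, the genes whose pattern was most like that of DUSP5 were ADAT3, ADAMTSL1, MAST4, SPOUT1 and H2AC6, with root mean square differences of 0.022, 0.032, 0.039, 0.047 and 0.055 on the log2 scale. ADAT3, a subunit of a tRNA deaminase, changed by 0.17 with perifosine, -0.36 with sorafenib and -0.32 with the combination, beside 0.19, -0.33 and -0.33 for DUSP5. In all 85 genes lay within 0.1 of DUSP5 by this measure, which rests on 4 group means that share the control arrays.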

How the data were processed

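Total RNA of HDLM-2 cells was labelled and hybridised to Illumina bead arrays, per the labels' protocols. The work starts from the intensity values that the authors deposited, linear and 1 per probe. The submitters' processing notes name BeadStudio but no version of it; how the authors normalized is not given in the sources. The sorted values of the 12 arrays differed by at most 1.09%. A second deposited table holds 24 columns (12 signal, 12 detection p) with names that match no label of a sample, and was not used. Batches, slides and scan dates are unknown.

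Intensities were background-corrected by normexp without control probes (offset 16), quantile normalized and put on the log2 scale, which is the scale of every log2 change. The background threshold of an array was the mode of its signals plus the upper 5% point of a normal curve fitted to the signals below that mode. The filter kept 25143 probes above it on at least 3 arrays. In the annotation 28098 probes have 1 gene symbol, 13 have several and 20692 are not listed, and 28059 of the named probes had a RefSeq symbol. The brightest kept probe represented each of 13556 genes. The 12 arrays entered a single linear model in limma 3.58.1 (R 4.3.3) with 1 mean for each group and no block. Benjamini-Hochberg adjustment ran over all genes, separately for each comparison. The number of arrays limits the precision. The fit was tested on simulated data. Promoter sequences are RefSeq windows of GRCh38.p14.

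The 10 members and the other gene lists were chosen with earlier results of these data known. Named besides the members are list genes called in any comparison, a few set ones whatever their value (FOS, EGR1, DUSP1, SPRY1, ETV1, MYC and ARAF), and the 5 genes most like the member with the smallest F test p. CXCL8, FOSL1, DUSP16, PHLDA2, CCL17 and TRAF1 were named as called. DUSP3, DUSP8, SPRY3, PHLDA3, CCND1, EPHA2 and the cell type markers given as examples were picked after their values were seen. Alternatives changed the background correction, its offset, the quantile step, the filter, the probe per gene, array weights, the variance model, the arrays in the fit and a replicate block.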

Additional observations from a re-analysis of the deposited data

How the results depend on the processing

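The counts of members called were 0 in every setting for sorafenib, perifosine and the combination against control, the combination against sorafenib, and the difference of the sorafenib change. On the 6 arrays with against the 6 without sorafenib, 2 members were called. The count ranged from 2 to 3 over the fits leaving arrays out, and DUSP6 was the member added. DUSP6 was also added with array weights (limma adjusted p = 0.0475). The count was 1 with the mean of the kept probes and with the other ETV5 probe. For the combination against perifosine and for sorafenib against perifosine the count of 1 became 2 with no background correction, with probes above the threshold on all arrays, with array weights, and with trend and robust, and 0 with no filter on dim probes and with only the groups compared. The added member was ETV5. The F test count of 1 became 2 under the same settings and at a normexp offset of 50, and 0 with no filter. Leaving out arrays gave 0 to 1 for the combination against perifosine, 0 to 1 for sorafenib against perifosine, and 0 for the F test in each of 13 fits, including that without perifosine B and sorafenib C (0 for sorafenib against perifosine and 0 for the F test). The adjusted p rose in some fits with an array left out and fell in others. For DUSP6 on arrays with against without sorafenib, the limma adjusted p was 0.15 with all arrays and 0.0426 without sorafenib C. The cause of the losses and gains was not tested.

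The replicate letters did not pair the arrays: 2 of 18 same-letter pairs correlated over 0.1 (range -0.24 to 0.21), and 3 of 12 arrays correlated best with their own letter. Of 36 pairs with different letters 4 correlated over 0.1 (range -0.35 to 0.39), perifosine B with sorafenib C the highest. With the letter as a replicate block the counts for the combination against perifosine, sorafenib against perifosine and the F test were 0, 0 and 0 (DUSP5 limma adjusted p = 0.0671 and 0.0889 in the first and second), and no other count of members moved. Among the other named genes the block ended the calls of FOS against control with sorafenib (limma adjusted p = 0.0606) and with the combination (0.0553), of FOSL1 on the arrays with sorafenib (0.068) and of PHLDA2 in sorafenib against control (0.0654). No called change turned its sign, while some that were not called did: the other ETV5 probe gave 0.08 between sorafenib and perifosine and -0.13 between perifosine and control, and the median of the members between perifosine and control went down to -0.03 without perifosine B. Members near the background threshold (DUSP4, SPRY2, SPRY4, ETV4 and the second DUSP6 probe) are limited by signal over background, and without background correction the ETV5 change was -0.41.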
